A study of Mus musculus with 24 samples.

Results

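The imprinted genes around H19 comprised 9 mouse genes, H19, Igf2, Igf2r, Dlk1, Meg3, Peg3, Grb10, Mest and Plagl1, out of 46603 annotated genes and 126602 features counted in all, the others being transcripts assembled by the authors. They were selected by symbol, and the set was chosen for the fall of H19 between the timepoints, so the differences of H19 between timepoints are a description without a test. The other 8 genes were included as imprinted genes, with earlier results of these data known, and were tested. All 9 passed the filter on low counts. Mouse retinal organoids (MROs) are retinal tissue grown in culture, here from the embryonic stem cell line E14Tg2a by a trisection protocol. The synthetic retinoid EC23 was given early in culture. MROs were sampled on days (D) 20, 22, 25 and 30 of differentiation. Each timepoint had 6 individual control MROs, to which only the solvent water had been added, and total RNA of each was depleted of ribosomal RNA and sequenced as a strand-specific library. All MROs came from 1 stem cell line and 1 experiment, and nothing separates the spread between MROs from the spread between experiments.

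Imprinted genes are transcribed mainly from the allele inherited from 1 parent, and many lie in clusters that share a control region methylated on a single allele. In the best known cluster, H19, a noncoding RNA, is transcribed from the maternal allele and its neighbour Igf2, which encodes insulin-like growth factor 2, from the paternal allele, and both use enhancers beyond H19. These genes are known for high levels in the embryo and for low levels of many of them in adult tissues. The counts do not tell the alleles apart, so every level here is a sum over both.

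In the GRCm38 annotation H19 lies at chr7:142575529-142578143 and Igf2 at chr7:142650766-142666816, both on the minus strand. The exons of H19 hold the hairpin of miR-675, the microRNA cut from the same transcript, and an intron of Mest, at chr6:30723547-30748465 on the plus strand, holds that of miR-335. These sequences are shown because their hosts ran in opposite directions, H19 downwards and Mest upwards, as described below. They are RefSeq sequences on GRCm38.p6, written 5′ to 3′. In the hairpin at chr7:142577064-142577147, minus strand, the capitals mark the mature arms, and in the mature microRNAs they mark the seed, bases 2 to 8.
miR-675 hairpin: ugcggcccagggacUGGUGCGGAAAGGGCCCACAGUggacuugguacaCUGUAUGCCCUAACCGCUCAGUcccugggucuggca
mmu-miR-675-5p: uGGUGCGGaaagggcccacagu
mmu-miR-675-3p: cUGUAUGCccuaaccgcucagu
mmu-miR-335-5p: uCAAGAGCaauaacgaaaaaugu
mmu-miR-335-3p: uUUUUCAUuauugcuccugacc
The 9 mature microRNAs matched to the hosts H19, Igf2, Meg3 and Mest had 9 distinct seeds. The count files list 0 reads for each of the 5 microRNA genes, and the libraries were size selected for longer inserts, so the levels of the microRNAs were not measured.

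H19 was the member whose level set the choice of the set, and its values ran downwards over the timepoints. In CPM, read counts scaled to the size of each library after TMM scaling (normalized CPM), the 6 MROs held 742, 462, 392, 572, 512 and 473 at D20 and 296, 251, 97.3, 256, 238 and 639 at D22. At D25 they held 157, 184, 163, 109, 83.3 and 71.9, and at D30 they held 83.9, 83.4, 42.9, 169, 72.3 and 81.8. Every D20 MRO lay above every D25 and D30 MRO, whereas neighbouring timepoints overlapped. Over 6 MROs, the D20 mean was 525 ± 121 (SD), the D22 mean 296 ± 181, the D25 mean 128 ± 46.2 and the D30 mean 88.8 ± 42.2. In bulk MROs, fewer cells of a type and less of an RNA per cell cannot be told apart.

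From D20 to D30 the level of H19 differed by -2.56 on the log2 scale (standard error 0.31), a fold of 5.92. The first step, to D22, was -0.83, the second, to D25, was -1.21 and the last, to D30, was -0.53. At D22, MRO 6 alone held 639, more than the D20 median of 492, while the other 5 held 97.3 to 296. Without MRO 6 the first step was -1.21 and the second -0.83, so that this library decided which step was the larger. Without D30 MRO 4, which held 169, the last step was -0.81 and the change from D20 to D30 was -2.85.

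Igf2, the growth factor gene next to H19, did not pass the test in any comparison. Its normalized CPM in MROs 1 to 6 was 69.2, 55.5, 77.2, 98.6, 32.6 and 38.5 at D20, and 39.1, 36.8, 21.5, 27.9, 44.2 and 57.0 at D22. It was 37.9, 43.8, 44.3, 74.0, 56.5 and 22.0 at D25, and 72.3, 44.7, 173, 156, 64.1 and 43.3 at D30. The 4 timepoints overlapped throughout, and 2 of the D30 MROs, 3 and 4, stood far above the other 4. The log2 fold change from D20 to D30 was 0.57 (adjusted p = 0.154 by the quasi-likelihood test of edgeR, standard error 0.31), and that from D25 to D30 was 0.99 (standard error 0.32, adjusted p = 0.0535). Without D30 MRO 3 these 2 log2 fold changes were 0.30 and 0.71, and without D30 MRO 4 they were 0.36 and 0.78.

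The count ratio of H19 to Igf2 within an MRO therefore ran downwards from a D20 median of 9.52 (lowest 5.08, highest 15.7) to 7.2 at D22 (4.53 to 11.2), 3.48 at D25 (1.47 to 4.19) and 1.14 at D30 (0.248 to 1.89). The D20 and D22 ratios lay above all ratios of D25 and D30. This ratio carries the value of H19 that chose the set and is given without a test. It was lowest in D30 MRO 3, which had both the lowest H19 (42.9) and the highest Igf2 (173) of its timepoint.

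**Figure D1:**
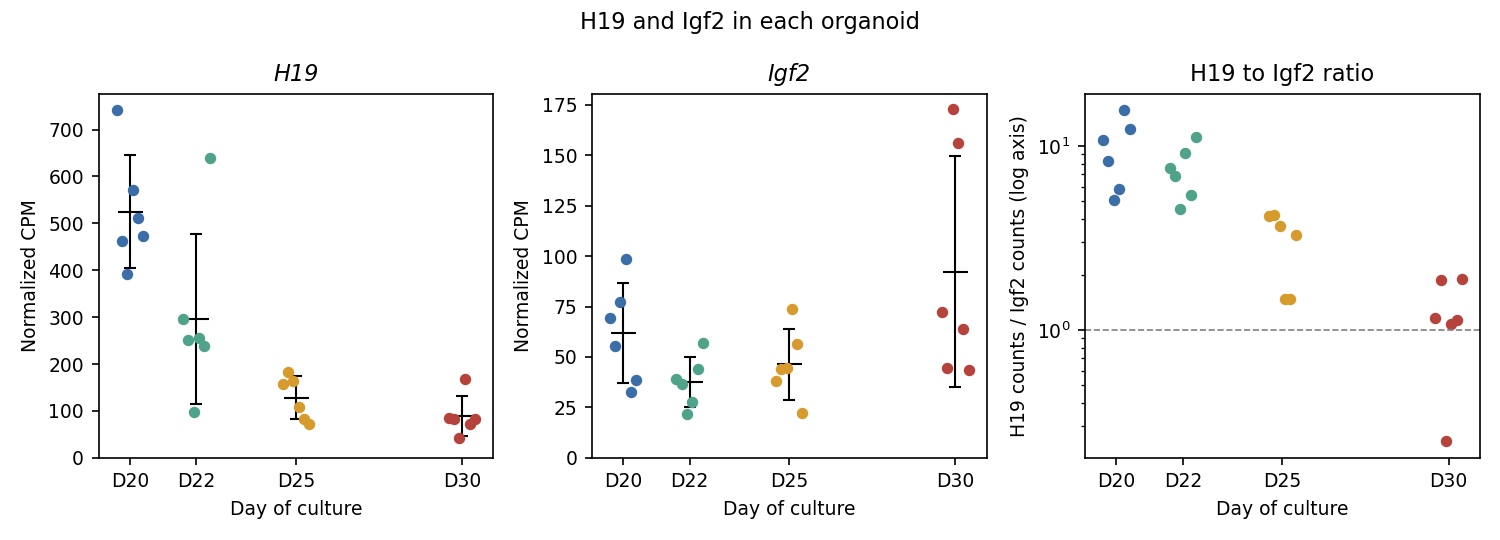
Normalized CPM of H19 and Igf2, and the H19 to Igf2 count ratio on a log axis, against day of culture. Points are single MROs (6 per timepoint), the horizontal mark and bar are the mean and SD, and the dashed line is a ratio of 1. H19 medians run from 492 at D20 to 82.6 at D30, the 4 Igf2 ranges overlap, and the ratio runs from a median of 9.52 to 1.14.

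Of the 8 other genes, 6 passed the test at an adjusted p below 0.01 between D20 and D30, 5 of them lower and 1 higher at D30. Between the same timepoints 26.8% of all tested features and 41.8% of tested annotated genes passed, so 6 of 8 stands beside a comparison in which many genes moved. From D20 to D22, 2 of 8 passed (Igf2r and Plagl1, both lower), against 1.9% of features and 3.32% of annotated genes. From D22 to D25, 4 of 8 passed (Igf2r, Meg3 and Plagl1 lower, Mest higher), against 5.28% and 10.2%. From D25 to D30 Plagl1 alone passed, against 3.51% and 7.38%. The median log2 fold change from D20 to D30 over the 16253 tested annotated genes was 0.10.

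The receptor that removes IGF2 was among the genes that fell. Igf2r (chr17:12682406-12769664, minus strand) encodes the IGF2 and mannose 6-phosphate receptor, which carries IGF2 to the lysosome and sends no growth signal. It held 147, 108, 129, 107, 114 and 112 normalized CPM at D20, 64.6 to 91.6 (median 82.4) at D22, 43.7 to 65.4 (median 55.6) at D25 and 40.3 to 61.6 (median 56.0) at D30. No MRO after D20 reached the D20 range. On the log2 scale Igf2r fell by 0.57 between D20 and D22 (adjusted p = 0.00189) and by 0.55 between D22 and D25 (adjusted p = 0.00121), each with a standard error of 0.11, whereas the difference from D25 to D30 was -0.02 (adjusted p = 0.971). From D20 to D30 it fell by 1.13 (adjusted p = 1.57e-09). The noncoding RNA Airn, which starts inside Igf2r on the opposite strand and shares 0 exon bases with it, had means of 4.38 normalized CPM at D20 and 8.15 at D30 (log2 fold change 0.89, adjusted p = 0.0117), and passed the test under 3 of 7 alternatives and in 4 of 24 fits without 1 MRO.

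Grb10 (chr11:11930508-12038683, minus strand) encodes an adaptor protein that binds the insulin and IGF1 receptors and dampens their signal. It held 35.7 to 73.7 normalized CPM at D20 (median 50.3), 28.9 to 48.2 at D22 (median 38), 23.9 to 39.0 at D25 (median 32.9) and 18.9 to 32.3 at D30 (median 29.3). All D30 MROs lay below all D20 MROs, but no neighbouring timepoints separated. No single step passed the test, with log2 fold changes of -0.38, -0.27 and -0.26, whereas from D20 to D30 it fell by 0.92 (standard error 0.16, adjusted p = 3.02e-05).

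Plagl1 was the tested member with the largest decrease. Plagl1 (chr10:13060504-13131694, plus strand) encodes a zinc finger transcription factor also called ZAC1, which restrains cell division. It held 214, 128, 134, 97.6, 142 and 121 normalized CPM at D20, 89.3, 82.6, 62.5, 77.8, 69.6 and 97.5 at D22, 36.2, 27.5, 47.1, 34.1, 48.9 and 37.6 at D25, and 18.0, 19, 19.8, 22.2, 16.0 and 23.7 at D30. The 4 timepoints did not overlap, and each lay below the one before it. It fell by 0.80 (adjusted p = 0.00133), 1.05 (adjusted p = 3.85e-05) and 0.96 (adjusted p = 9.95e-05) over the successive steps, each with a standard error of 0.15. Its D30 level was 7.05-fold lower than that of D20 (log2 fold change -2.82, adjusted p = 1.86e-14, standard error 0.16).

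Mest was the only tested member that rose. It encodes a protein of the alpha/beta hydrolase family, is transcribed from the paternal allele, and is known for its high level in embryonic mesoderm. Mest held 16.9, 19.1, 16.9, 19, 13.3 and 24.1 normalized CPM at D20 and 12.4, 25.8, 48.5, 40.2, 28.1 and 22.4 at D22. It held 54.0 to 76.1 at D25 (median 65.9) and 65.8 to 114 at D30 (median 92.7). All D25 and D30 MROs lay above all D20 and D22 MROs, while D25 and D30 overlapped. On the log2 scale Mest rose by 1.16 between D22 and D25 (adjusted p = 0.000304, standard error 0.20) and by 2.32 between D20 and D30 (adjusted p = 3.12e-10, standard error 0.21), a fold of 5.01. The D20 to D22 difference of 0.70 had an adjusted p of 0.0433, and it passed without D22 MRO 1 (0.84, adjusted p = 0.00389). Mest shares 912 exon bases, 23.1% of its own, with the opposite-strand gene Copg2, whose log2 fold change from D20 to D30 was 0.22 (adjusted p = 0.0344), and the strand setting of the counting is not given in the sources used here.

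The sequences before the starts of Plagl1 and Mest are shown because these 2 genes had the largest changes among the tested members, in opposite directions. Each is the 250 bases before a RefSeq start, on the plus strand of GRCm38.p6, and capitals mark GCGGCA, the reverse complement of the hexamer TGCCGC that the imprint-keeping protein ZFP57 is known to bind when methylated.
Plagl1, chr10:13090582-13090831: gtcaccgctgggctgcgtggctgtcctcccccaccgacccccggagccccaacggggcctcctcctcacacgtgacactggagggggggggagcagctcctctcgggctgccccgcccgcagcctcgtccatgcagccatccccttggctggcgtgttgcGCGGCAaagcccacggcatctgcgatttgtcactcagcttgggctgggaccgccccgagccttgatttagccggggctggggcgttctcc
Mest, chr6:30737800-30738049: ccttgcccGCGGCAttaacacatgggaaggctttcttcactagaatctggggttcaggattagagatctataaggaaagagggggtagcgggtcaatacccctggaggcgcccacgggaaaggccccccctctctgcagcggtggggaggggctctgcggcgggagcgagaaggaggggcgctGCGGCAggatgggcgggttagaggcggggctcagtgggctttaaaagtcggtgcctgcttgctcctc
The hexamer was searched on both strands in windows of 300 bases, from 250 before to 50 after each start. The Plagl1 window held 1 match and 26 CpG, and the Mest window at the start shown held 2 matches and 17 CpG. Another Mest start lies 3 bases further on, and the window of an earlier one, chr6:30733256-30733555, held 0 matches and 8 CpG. Of the 32851 windows of that length, 11.6% held at least 1 match and 1.53% held at least 2, and the median was 7 CpG. Windows were found for 8 of the 9 genes. Igf2, Meg3 and Grb10 each also had 1 window with 1 match, while the windows of Igf2r, Dlk1 and Peg3 held 0. A match is a description of the letters and not a bound site.

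Dlk1 and Meg3 share a cluster on chromosome 12. Dlk1 (chr12:109452823-109463336, plus strand) encodes a Notch-related membrane protein that keeps precursor cells from differentiating, and is transcribed from the paternal allele. Its level was low, with 4.27, 3.49, 3.65, 4.55, 3.84 and 1.22 normalized CPM at D20, 1.49 to 3.02 at D22 (median 2.21), 0.289 to 1.99 at D25 (median 1.1) and 0.222 to 1.31 at D30 (median 0.832). D20 MRO 6 lay within the D30 range and the other 5 lay above it. No step passed the test, but Dlk1 fell between D20 and D30, with a log2 fold change of -2.08 (adjusted p = 0.00012, standard error 0.40). The D30 libraries held 4 to 20 counts of it, and 3 counts, taken as the limit that a count of 0 allows, corresponded to 0.154 to 0.22 CPM.

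Meg3 (chr12:109541001-109571726, plus strand), a maternally transcribed noncoding RNA, had the highest CPM of the set after normalization. It held 1740, 916, 1250, 1170, 1050 and 1100 normalized CPM at D20, 714 to 1290 at D22 (median 1040), 489 to 696 at D25 (median 655) and 338 to 816 at D30 (median 720). The D25 MROs lay below all D22 MROs, and the D30 MROs below all D20 MROs. On the log2 scale Meg3 fell by 0.72 between D22 and D25 (adjusted p = 0.00334) and by 0.87 between D20 and D30 (adjusted p = 7.68e-05), both with a standard error of 0.16. The D22 to D25 call was lost without D22 MRO 4 (-0.68, adjusted p = 0.0115), D22 MRO 6 (-0.65, adjusted p = 0.0124) or D25 MRO 5 (-0.66, adjusted p = 0.0105). The exons of Meg3 share 1228 bases, 6.79% of their length, with the opposite-strand gene Gm26906.

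Of the 5 other tested genes of the Dlk1 and Meg3 cluster, 3 passed the test, all lower at D30, against 41.8% of annotated genes called in either direction. Rian and Mirg, noncoding RNAs that host small nucleolar RNAs and microRNAs on the Meg3 strand, had D20 means of 741 ± 94.0 and 83.2 ± 18.6 normalized CPM and D30 means of 312 ± 98.7 and 18.9 ± 4.26 (SD, n = 6). They fell by 1.25 (adjusted p = 9.53e-07) and 2.14 (adjusted p = 2.3e-11) on the log2 scale. Rtl1, a retrotransposon-derived gene opposite to that strand, fell by 2.07 (adjusted p = 1.34e-06). Dio3 (0.57, adjusted p = 0.27) and Begain (-0.46, adjusted p = 0.0799) did not pass the test.

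Peg3 (chr7:6703892-6730431, minus strand), which encodes a large zinc finger protein and is transcribed from the paternal allele, did not pass the test in any comparison. It held 293 to 402 normalized CPM at D20 (median 322), 296 to 384 at D22 (median 346), 359 to 461 at D25 (median 389) and 308 to 477 at D30 (median 352), and all 4 ranges overlapped. Its log2 fold change from D20 to D30 was 0.11 (standard error 0.10, adjusted p = 0.412).

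**Figure D2:**
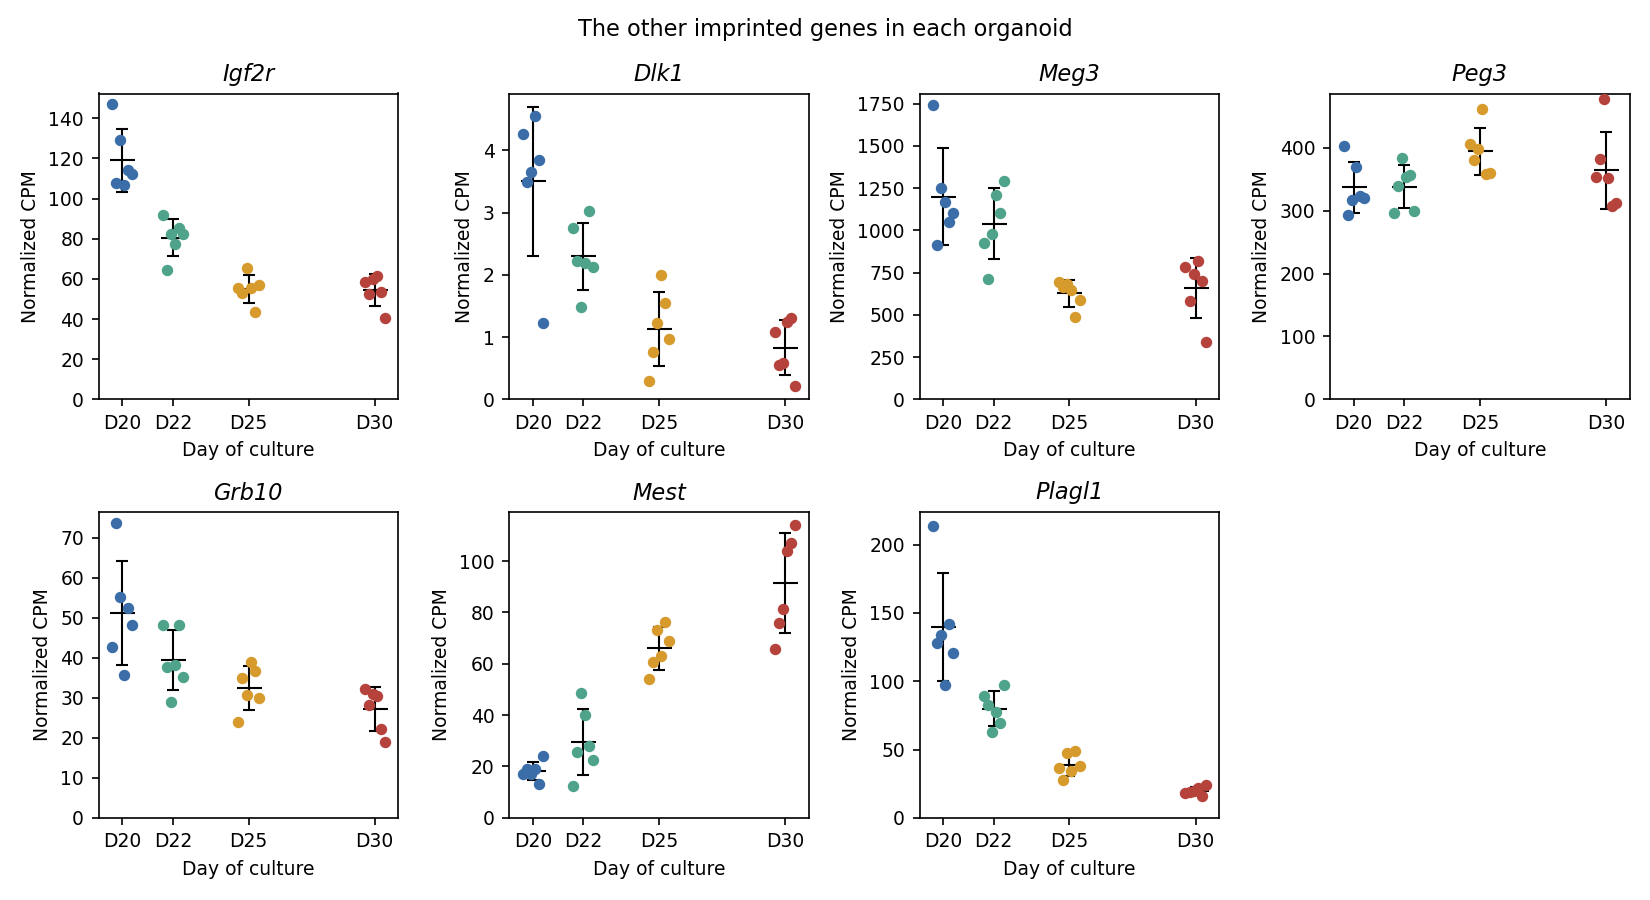
Normalized CPM of the 7 genes other than H19 and Igf2 against day of culture. Points are single MROs (6 per timepoint), and the horizontal mark and bar are the mean and SD. Plagl1 separates at every timepoint, Mest is higher at D25 and D30 than at D20 and D22, and Peg3 overlaps throughout.

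Per kilobase of exon, the order of the mean levels at D20 was H19 (214 normalized CPM per kilobase), Meg3 (66.5), Peg3 (25.3), Plagl1 (17.8), Igf2r (12.8), Igf2 (10.8), Grb10 (5.65), Mest (4.62) and Dlk1 (0.619). The neighbours from Peg3 to Mest did not differ by more than the sum of their SDs, whereas H19, Meg3 and Peg3 differed from one another by more, and so did Dlk1 from Mest. At D30 the order began with Meg3 (36.4 ± 9.81) and H19 (36.1 ± 17.1), followed by Peg3 (27.3), Mest (23.2), Igf2 (16.1), Igf2r (5.84), Grb10 (2.99), Plagl1 (2.53) and Dlk1 (0.147). There only Igf2r and Grb10, and Plagl1 and Dlk1, differed from their neighbour by more than the sum of the SDs. Mest moved from the eighth place to the fourth and Plagl1 from the fourth to the eighth.

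Other imprinted genes and neighbours in the clusters, 60 in all, were listed beside the members. Whether each neighbour is itself imprinted was not examined. Of the 60, 44 were tested, and 15 rose and 12 fell from D20 to D30. This was a share of 61.4%, with a median log2 fold change of 0.21. That share stands against 41.8% of all annotated genes, whose median was 0.10. Near H19, the mitochondrial ribosomal protein gene Mrpl23 fell by 0.88 (adjusted p = 0.00013). In the neighbouring cluster of chromosome 7, Cdkn1c, an inhibitor of the cell cycle, fell by 1.51 (adjusted p = 1.57e-06), and the noncoding RNA Kcnq1ot1 fell by 0.51 (adjusted p = 2.4e-05). In the same cluster Osbpl5 rose by 1.10 (adjusted p = 0.00231), a call lost without D30 MRO 5 (0.92, adjusted p = 0.0109), and Cd81 rose by 0.50 (adjusted p = 0.00336), a call lost without D20 MRO 5 (0.46, adjusted p = 0.0105), D30 MRO 1 (0.36, adjusted p = 0.0184) or D30 MRO 5 (0.45, adjusted p = 0.0105), and with the compared timepoints only (0.50, adjusted p = 0.0144). The 5 further tested genes of the clusters of Igf2r, Peg3, Grb10 and Mest did not pass the edgeR test, which gave Airn an adjusted p of 0.0117, Usp29 one of 0.0168, Copg2 one of 0.0344, Zim1 one of 0.103 and Cobl one of 0.17.

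**Figure D3:**
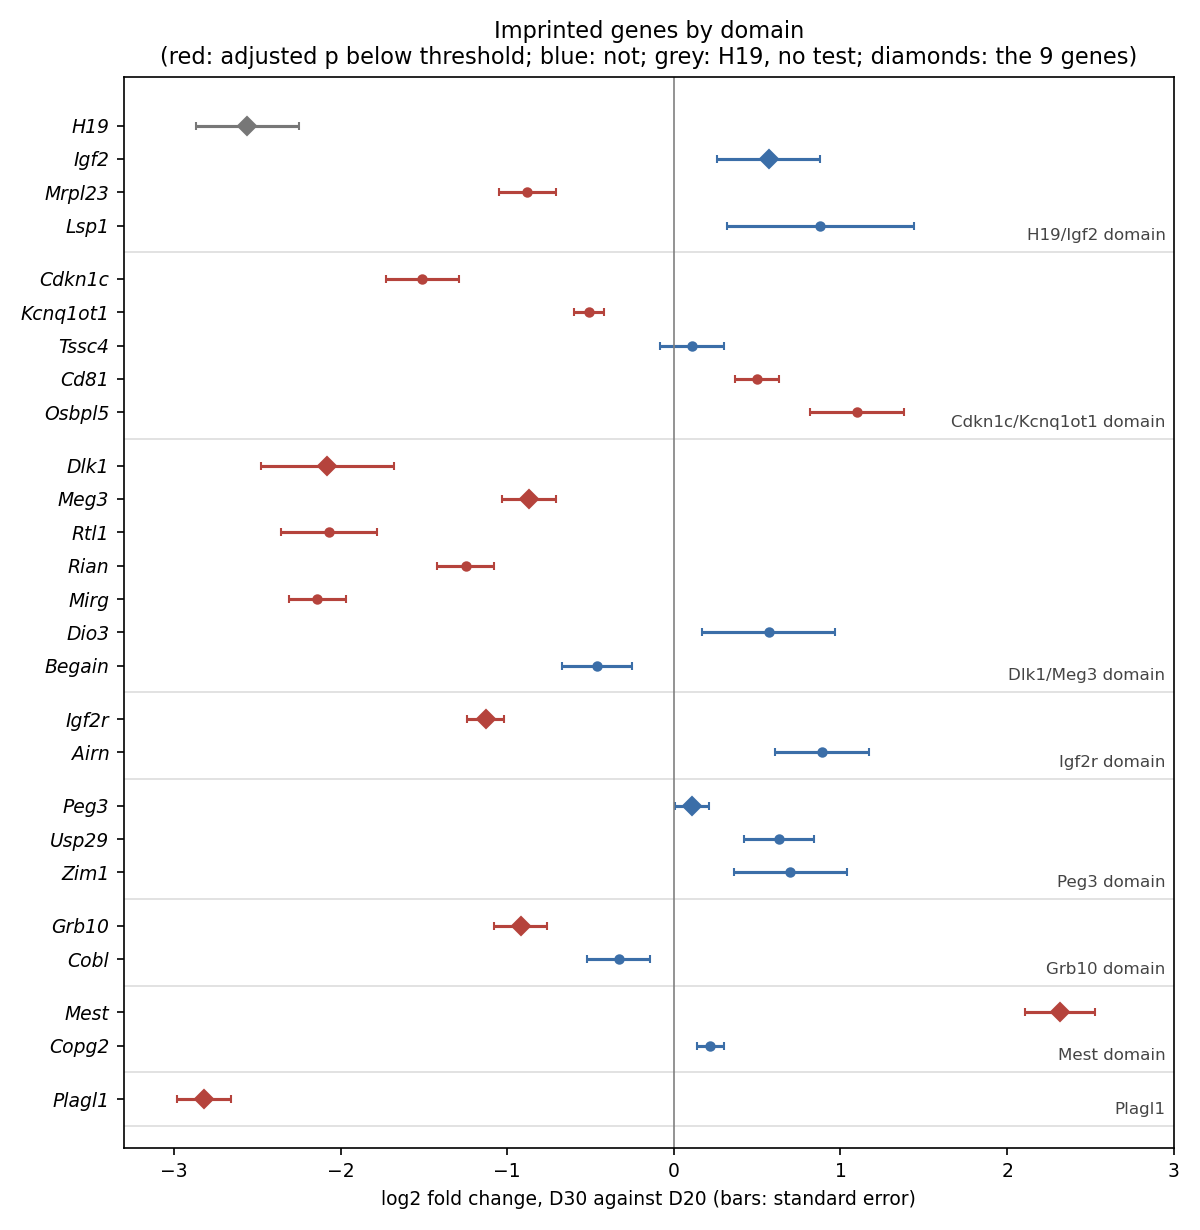
Log2 fold change from D20 to D30 with its standard error. Diamonds are the 9 genes, and circles the tested genes listed for their clusters and for the Cdkn1c cluster. Red marks an adjusted p below 0.01, blue one that is not, and grey H19, which was not tested. Mest (2.32) lies farthest to the right and Plagl1 (-2.82) farthest to the left. Of the 7 genes of the Dlk1 and Meg3 cluster, 5 passed the test, all lower at D30, with Dlk1 and Meg3 among them. Of all tested annotated genes 41.8% passed.

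The imprinted genes outside these clusters with the largest called changes were Dcn, Rasgrf1, Kcnk9 and Magel2. Dcn, a matrix proteoglycan gene of connective tissue, rose by 3.79 on the log2 scale (adjusted p = 0.000428), Rasgrf1, an exchange factor for Ras, by 2.65 (adjusted p = 0.00064), and Kcnk9, a potassium channel gene, by 2.46 (adjusted p = 0.000889). Magel2 fell by 2.04 (adjusted p = 0.00492), a call lost when any of 5 MROs was left out.

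Genes of the IGF pathway, 17 listed and 15 tested, gave 4 that rose and 6 that fell, a share of 66.7% against 41.8% of annotated genes. The 3 genes of the IGF2 mRNA binding proteins, which bind the Igf2 transcript among others, all fell. Igf2bp1 held 72.2 to 106 normalized CPM at D20 and 4.54 to 12.1 at D30 (log2 fold change -3.33, standard error 0.19, adjusted p = 9.83e-15). Igf2bp3 held 27.1 to 40.1 and 5.32 to 10.2 (-2.33, adjusted p = 1.37e-13), and Igf2bp2 held 56.0 to 80.1 and 17.1 to 28.9 (-1.63, adjusted p = 5.32e-10). No D30 MRO reached the D20 range of any of them.

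Igf1, the other ligand of the IGF1 receptor, rose from 4.45 ± 1.34 to 23.8 ± 6.15 normalized CPM (SD over 6 MROs), 5.34-fold (log2 fold change 2.42, adjusted p = 1.85e-06). The receptor gene Igf1r had a log2 fold change of -0.36 (adjusted p = 0.00911), which did not pass under 5 of 7 alternatives nor in 18 of 24 fits without 1 MRO. Insr, the insulin receptor gene, had one of -0.27 (adjusted p = 0.00687), which did not pass under 6 of 7 alternatives nor in 9 of 24 such fits. Among the genes listed by name as IGF binding proteins, Igfbp2 fell by 1.87 (adjusted p = 1.62e-07), from 274 ± 56.3 to 74.7 ± 26.9 normalized CPM. Igfbp7 rose by 2.98 (adjusted p = 0.000321; 3.78 without D20 MRO 1), Igfbp5 by 1.92 (adjusted p = 5.08e-06) and Igfbp3 by 1.79 (adjusted p = 9.56e-05).

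**Figure D4:**
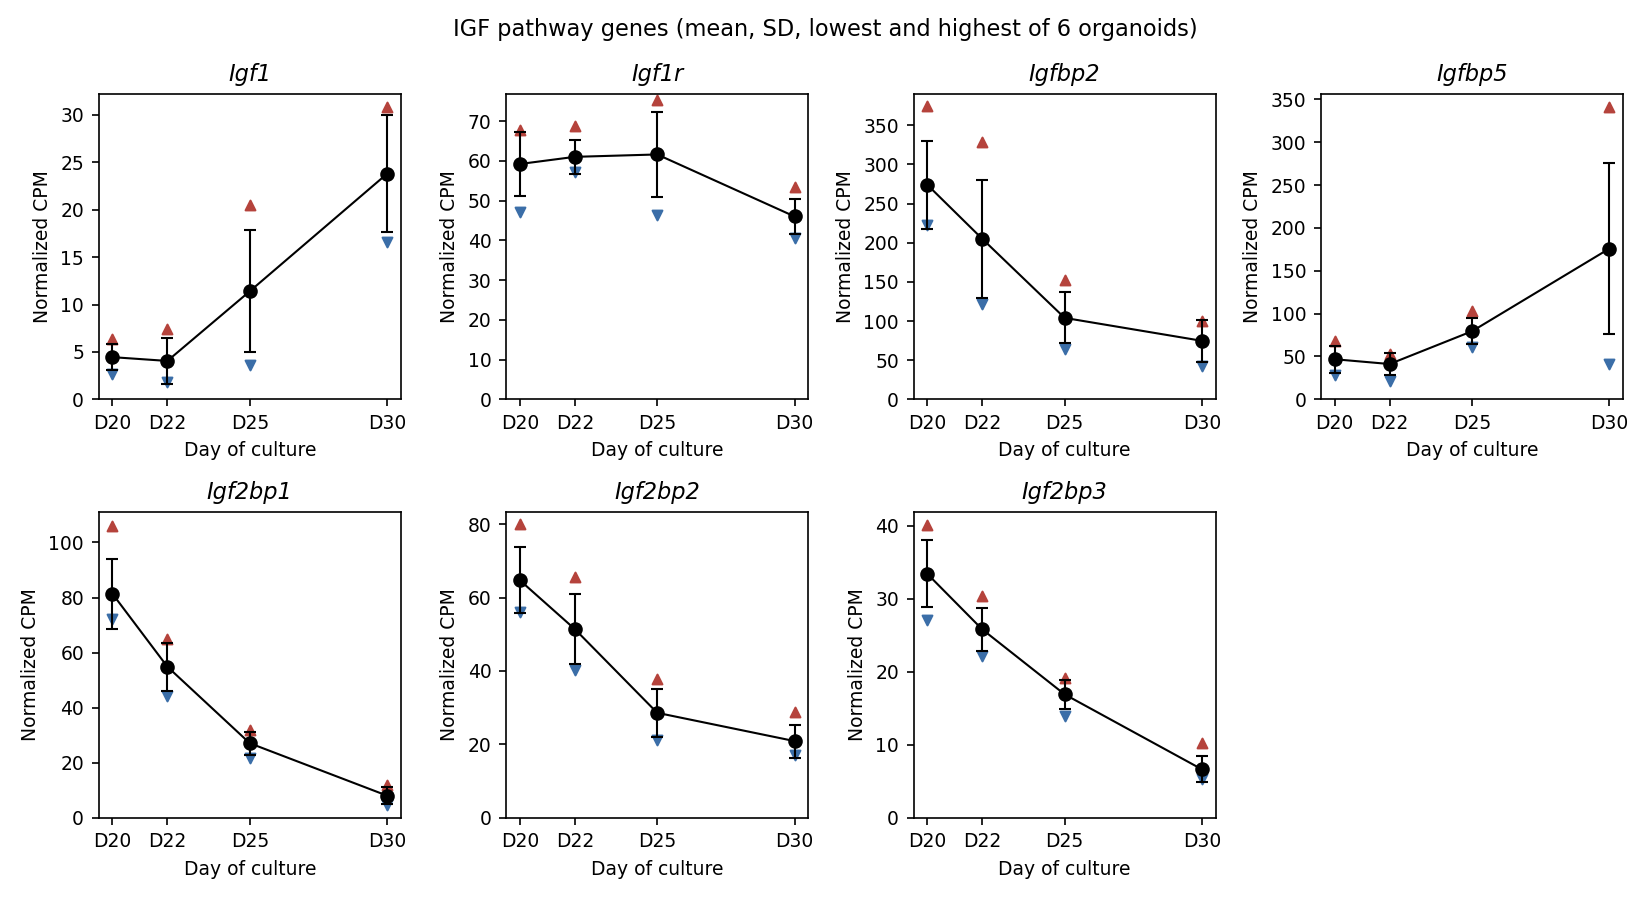
Normalized CPM of 7 genes of the IGF pathway against day of culture. Circles and bars are the mean and SD of 6 MROs, and triangles the lowest and highest MRO. The means of Igf1 and Igfbp5 are highest at D30, where 1 or more MROs of Igfbp5 lie in the D20 range, while Igfbp2 and the 3 Igf2bp genes run downwards from D20.

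Factors that set or keep the methylation of imprinted control regions, 11 listed and 8 tested, gave 2 that rose and 3 that fell, a share of 62.5% against 41.8% of annotated genes. Ctcf, which binds the control region between H19 and Igf2, had 105 ± 12.7 normalized CPM at D20 and 120 ± 9.28 at D30 (log2 fold change 0.20, adjusted p = 0.0703), and the maintenance methyltransferase gene Dnmt1 had 117 ± 8.51 and 118 ± 19.2 (0.00, adjusted p = 0.979). Dnmt3b, a methyltransferase of early cells, fell by 1.91 (adjusted p = 1.92e-06), Uhrf1, which recruits DNMT1, fell by 1.10 (adjusted p = 0.000441), and Trim28 fell by 0.51 (adjusted p = 0.000145). Zfp445, a zinc finger gene of imprint keeping, rose by 0.49 (adjusted p = 9.41e-05).

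Markers of several cell types moved over the same days. Of the 16253 tested annotated genes, 4078 rose and 2712 fell from D20 to D30, a called share of 41.8%. Of 10 retinal progenitor markers, 9 fell, and their summed level was 1170 to 1830 normalized CPM at D20 and 428 to 574 at D30. The progenitor genes Fgf15 (-5.32, adjusted p = 2.3e-10), Sfrp2 (-3.46, adjusted p = 1.47e-10), Ccnd1 (-2.53, adjusted p = 3e-13) and Six3 (-2.15, adjusted p = 2.22e-12) fell most. Among photoreceptor markers, recoverin (Rcvrn) rose by 7.38 (adjusted p = 2.73e-16) and the rod factor Nrl by 1.80 (adjusted p = 5.66e-10). Crx, of the same list, did not pass the test (0.26, adjusted p = 0.0361). The MROs thus held markers of the labelled tissue at every timepoint.

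Of 11 tested mesenchyme and fibroblast markers out of 14, 7 rose, a share of 63.6% against 41.8% of annotated genes. Lum, Col5a1, Pdgfrb and Acta2 did not pass the test. The summed level of the 14 was 23.2 to 59.5 normalized CPM at D20 and 98.7 to 330 at D30, where Pdgfra had a mean of 85.9. Among the markers that rose, Col3a1 rose by 4.08 (adjusted p = 0.000812, with 4.73 without D20 MRO 1 and 3.25 without D30 MRO 5), Col1a2 by 3.39 (adjusted p = 3.35e-06), Pdgfra by 3.09 (adjusted p = 2.82e-09) and Foxc1 by 2.49 (adjusted p = 0.00394). The Foxc1 call was lost without D20 MRO 2 (2.37, adjusted p = 0.0104), D30 MRO 1 (2.30, adjusted p = 0.012) or D30 MRO 5 (2.18, adjusted p = 0.016). Of 7 endoderm markers only Ttr was tested, which rose by 6.88 (adjusted p = 1.87e-05) and ranged from 19.9 to 2630 normalized CPM at D30. The other 6, Afp, Alb, Sox17, Foxa2, Apoa1 and Cdx2, were under the filter on low counts, and Cdx2 had 0 counts in every library. The rise is therefore that of Ttr alone and is not read as one of endoderm. Of 4 tested pigment epithelium markers out of 7, Mitf rose by 1.34 (adjusted p = 4.58e-05). Each of 2 tested muscle markers out of 6, Des (-2.82, adjusted p = 0.000556) and Tnnt1 (1.83, adjusted p = 7e-06), and of 2 tested endothelium and blood markers out of 6, Kdr (-0.73, adjusted p = 1.2e-06) and Pecam1 (2.97, adjusted p = 0.0015), moved. Kdr had a D20 mean of 280 normalized CPM and Pecam1 one of 0.167. The other 4 of this list, Cdh5, Hbb-y, Hba-x and Ptprc, were under the filter on low counts, so the fall of Kdr is not read as one of endothelium. The log2 fold change of Pecam1 was 4.18 without D20 MRO 4. Of 5 pluripotent cell markers only Pou5f1 was tested, which fell by 3.47 (adjusted p = 0.00169) and held at most 1.96 normalized CPM in any MRO. At D30 MRO 6 held 0.443 and the other 5 held 0 counts, so the size of this fall rested on that library (-6.89 without it, a fitted value that depends on the prior count). The part of these cell types in the levels of the imprinted genes was not tested.

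The genes whose pattern was most like that of H19, by Pearson's r of log2(normalized CPM + 0.5) over the 24 MROs among 10829 annotated genes averaging 100 normalized counts or more, were led by Scpep1 (r = 0.946), a serine carboxypeptidase gene, Eef1b2 (0.941), a translation elongation factor gene, and the pseudogene Rpl14-ps1 (0.941), which may share reads with Rpl14. They were followed by Gprc5c (0.939), Rpl14 (0.939), Mir17hg (0.936), Rpl5 (0.934), Rps3 (0.934), Rpl12 (0.931) and Eif2s2 (0.931). These 24 points share the days and their libraries, so the values describe likeness in time as much as between MROs. With the timepoint means subtracted, the most alike included Scpep1 (0.777), Sap30 (0.776), Nabp1 (0.742), Eef1b2 (0.742), Rpl14-ps1 (0.742), Loxl2 (0.727), Gprc5c (0.724), Rpl14 (0.721) and Rpl5 (0.706), of which 6 were in the first list too. Of the other imprinted genes, without this subtraction, Plagl1 ranked 187 (r = 0.875), Igf2r 395 (0.834), Meg3 831 (0.767), Grb10 1465 (0.669), Igf2 4947 (-0.05), Peg3 6896 (-0.419) and Mest 10432 (-0.866). With the timepoint means subtracted, Meg3 ranked 1291 (0.334), Plagl1 1449 (0.314), Igf2 1582 (0.298), Igf2r 2867 (0.184), Grb10 5737 (-0.005), Peg3 8747 (-0.248) and Mest 9571 (-0.349). Dlk1 was under the minimum and was not ranked.

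The ribosomal protein genes were looked at together after this likeness had been seen, as a description. The summed level of 77 of them was 23500 to 30300 normalized CPM at D20, 15200 to 29100 at D22, 11100 to 16200 at D25 and 9950 to 13500 at D30. D22 MRO 6, with an H19 of 639, held 29100, within the D20 range, and the other 5 D22 MROs held 15200 to 20600. D30 MRO 4, with the highest H19 of its timepoint (169), also held the highest sum of its timepoint, and D30 MRO 3, with the lowest H19 (42.9), held the lowest. At D20 MRO 1 held both the highest H19 (742) and the highest sum (30300). There, however, MRO 3, with the lowest H19 (392), held 29100, and MRO 6, with an H19 of 473, held the lowest sum (23500). At D25 the order differed too: MRO 5 held the highest sum (16200) with the second lowest H19 (83.3), and MRO 1 the lowest sum (11100) with an H19 of 157.

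**Figure D5:**
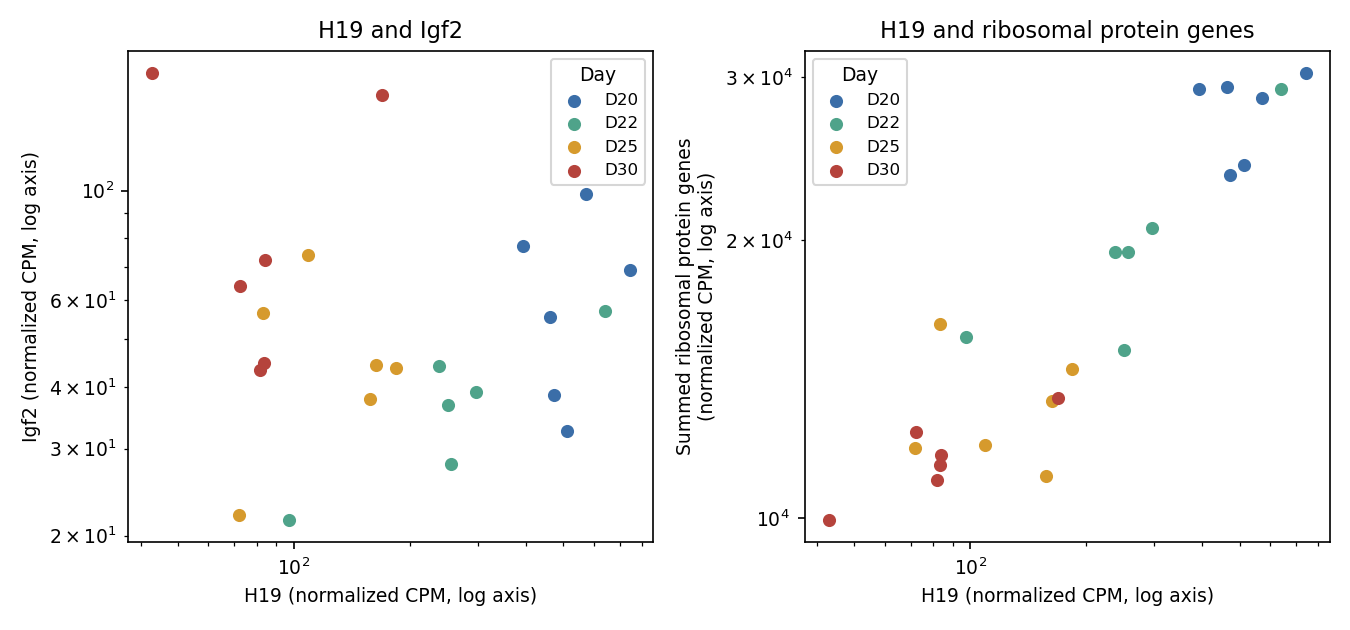
Igf2 (left) and the summed level of 77 ribosomal protein genes (right) against H19 in 24 MROs, in normalized CPM on log axes, coloured by day. On the right the D22 MRO with an H19 of 639 lies among the D20 MROs, and on the left Igf2 shows no order with H19 over the days.

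Within a timepoint, H19 was set against each of the other 8 genes over its 6 MROs, 32 relations in all, by Pearson's r and Spearman's rank coefficient with exact permutation tests, two-sided. Of these, 4 had a Pearson p and 3 a Spearman p below 0.05, and 0 did after Benjamini-Hochberg adjustment. The smallest p was that of Plagl1 at D22 (r = 0.91, exact permutation p = 0.00417, adjusted p = 0.133, rank coefficient = 0.94, exact permutation p = 0.0167, adjusted p = 0.267), and r was 0.88 without the 2 MROs farthest from the median of H19. Peg3 had r = 0.88 at D20 (exact permutation p = 0.0125, adjusted p = 0.193, rank coefficient = 0.94, exact permutation p = 0.0167, adjusted p = 0.267) and r = -0.83 at D22 (exact permutation p = 0.0181, adjusted p = 0.193, rank coefficient = -0.89, exact permutation p = 0.0333, adjusted p = 0.356), and without the 2 farthest MROs 0.95 and -0.95. Igf2 had r = 0.89 at D22 (exact permutation p = 0.0347, adjusted p = 0.278, rank coefficient = 0.60, exact permutation p = 0.242, adjusted p = 0.967), which was -0.08 without the 2 farthest MROs and so rested on them. Each r without 2 MROs is over 4 points only and is loose. At D25 that of Igf2 went from 0.22 to -0.88 and that of Peg3 from 0.34 to -1.0.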

How the data were processed

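The deposited values are read counts per feature, 1 file for each of 24 MROs. Per the labels and the study's methods, the authors trimmed single-end reads with cutadapt 1.5, aligned them to GRCm38 with HISAT2, assembled transcripts with StringTie 1.3.3 and counted reads with HTSeq 0.6.1. Counted reads per library were 13634846 to 19477108, which limits low genes as stated, for counting error only. MROs were grouped by the day in the labels. All 24 libraries were fitted together by edgeR 4.0.16 (R 4.3.3) with TMM scaling and its quasi-likelihood test, without covariates, on 46949 features with a mean of at least 10 counts divided by DESeq2 size factors. P-values were adjusted over all of them by Benjamini-Hochberg, with a threshold of 0.01, and standard errors are the log2 fold change divided by the square root of F. Of 46603 gene IDs, 46005 matched a symbol in GENCODE vM21. No 2 libraries of a timepoint differed by as little as sampling noise. The fit was tested on simulated counts of annotated genes with large changes and a smaller spread than the common one fitted here. That test therefore does not cover small changes or the assembled transcripts. Since the 6 MROs of a timepoint come from 1 experiment, p-values measure the spread between these MROs.

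The members and gene lists were chosen with earlier results of these data known. Named genes were the 9 members, up to 4 genes of each list with the largest called change from D20 to D30, a few named cluster and pathway genes whatever their values, and the 10 genes most like H19 in 2 ways; 1 of these and 1 list gene with the sum over its list are not reported here. Alternatives were DESeq2 1.42.0, its size factors in edgeR, no filter, filterByExpr, annotated genes only, the compared timepoints only, a replicate block, and 24 fits without 1 MRO each.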

Additional observations from a re-analysis of the deposited data

Results flagged for a closer look

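Over the 9 genes and 4 timepoints, 36 groups of 6 MROs were looked at for a single MRO far from the others (Dixon's test at the 95% level). Chance alone would flag about 1 in 20 of them if the values were normally distributed. The test was run on normalized CPM. On the log2 scale of the fold changes and correlations, the gap of a high MRO is a smaller share of the range, and the flags were not tested on that scale. In 3 groups the gap to the nearest MRO was above the critical 0.625 of the group's range. H19 in D22 MRO 6 was 639 normalized CPM, against 97.3 to 296 in the other 5, a gap of 0.633 of the range. H19 in D30 MRO 4 was 169, against 42.9 to 83.9, a gap of 0.674. Dlk1 in D20 MRO 6 was 1.22, against 3.49 to 4.55, a gap of 0.682, from 19 counts. Without that MRO the log2 fold change of Dlk1 from D20 to D30 was -2.25 (adjusted p = 3.12e-05, edgeR).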

How the results depend on the processing

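The counts of the 8 tested genes past the threshold stayed within 1.5 times under each of 7 alternatives, and without any 1 MRO they ranged from 2 to 3 (D20 to D22), 3 to 4 (D22 to D25), 1 to 1 (D25 to D30) and 6 to 6 (D20 to D30). H19 from D20 to D30 ranged from -2.85 to -2.42 without 1 MRO. With the replicate number as a block it was -2.62, and 6 of 8 genes passed, while the Ttr rise of 6.88 was 5.86. Over 36 pairs of MROs with the same number the mean correlation of deviations from the timepoint means was 0.014, with 1 pair over 0.1, so the numbers do not pair the MROs and the block is only an alternative. Changes near 0 that were not called turned direction: Igf2r from D25 to D30 was 0.034 with DESeq2 size factors and with DESeq2, and -0.074 to 0.057 without 1 MRO. Peg3 from D20 to D22 was -0.008 with DESeq2 size factors, -0.011 with filterByExpr, -0.003 with the compared timepoints only, -0.009 with DESeq2, and -0.036 to 0.046 without 1 MRO. Dnmt1 from D20 to D30 was -0.093 with annotated genes only, -0.003 with the block, and -0.053 to 0.056 without 1 MRO. Of the 15 tested IGF pathway genes, 10 passed in the main fit, 8 with DESeq2 and 8 to 10 without 1 MRO. Of the 44 tested imprinted and cluster genes beside the members, 27 passed in the main fit. They were 29 with DESeq2, 22 with the compared timepoints only and 22 to 27 without 1 MRO. With no filter, 3 endoderm and 2 pigment epithelium markers were called, and 1 to 2 of the latter without 1 MRO. These list alternatives, other than DESeq2, were chosen after seeing the data. The median over annotated genes from D20 to D30 was 0.10, 0.16 with DESeq2 size factors and 0.01 with annotated genes only. Dlk1, with 4 to 20 counts at D30, is the member that depth limits most. The cause of these differences was not tested.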
